A study of Homo sapiens with 2 samples.

Results

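Kinesins are motor proteins that walk along microtubules or take them apart. The kinesin genes were described here as the gene symbols made of KIF, a number and at most 1 letter from A to C, a rule that uses names only and found 39 of the 52402 gene symbols in the files. RNA had been sequenced from DLD1, an established human colorectal adenocarcinoma cell line, in 1 control library (genotype WT) and 1 library labelled HERV-R knockout. HERV-R is an endogenous retrovirus, and the study's title asks what loss of its env gene does to tumour traits of colorectal cancer cells. Both libraries carry the same protocol text, in which Cas9 and guide RNA vectors were transfected and hygromycin was used to select colonies. What the control received, and whether either culture is 1 clone, are not given in these sources.

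Each group is 1 library, so the difference has no replicate check, no test was made and no p-value is given. Counts were scaled to counts per 1000000 of the library total (CPM), and a gene was compared when its mean over both libraries was at least 1 CPM. Of the 39 kinesin genes 26 were compared, beside 12644 genes in all. The log2 ratio sets the knockout-labelled cells over control cells with 1 CPM added to both, and a gene passed the size rule when this was at least 1 or at most -1. Ratios of single genes are CPM ratios with nothing added, with an exact 95% interval that covers counting error only and says nothing of how far 2 cultures of 1 genotype differ.

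The control held 21881122 counts and the knockout-labelled library 16406308. ERV3-1, which encodes the HERV-R envelope protein, had 127 and 125 counts (5.80 and 7.62 CPM), so the label is not borne out by a lower RNA level, although a whole-gene count does not see a small edit. Of 11 colon epithelium markers 8 were compared. On the lower side 3 were past the rule (KRT8, KRT18 and KRT19), beside 5.69% of all compared genes. On the higher side 1 was (CDX2), beside 6.78%. The other compared markers had log2 ratios of 0.10 (EPCAM), -0.28 (CDH1), 0.50 (VIL1) and -0.49 (GPA33). KRT20 and CDX1 were at 0 in both libraries. None of the fibroblast, blood or endothelium markers looked up (6, 5 and 4) was compared. Of 4 neuron markers only MAP2 was, with 6.81 CPM in control cells and 1.65 CPM in the knockout-labelled cells. Over all compared genes the median log2 ratio was 0.12, and other scalings lowered every ratio by 0.12 to 0.16 (log2), so values are read against that median.

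Dividing cells need a set of kinesins that build the spindle, move chromosomes and cut the cell in 2 at cytokinesis, and most of these motors are made mainly in G2 and mitosis. Transport kinesins carry vesicles, organelles and RNA along microtubules throughout the cell cycle, and several of them serve mainly neurons. Epithelial cells also use kinesins in the primary cilium, and a few members regulate microtubules or have lost motor activity. The genes were sorted by these textbook roles into 13 mitotic, 13 transport, 6 cilium and 7 other kinesins.

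All 10 compared mitotic kinesins had a higher level in the knockout-labelled cells, also under each other scaling, and none passed the 2-fold rule. Their log2 ratios ran from 0.21 to 0.73 with a median of 0.51, beside 0.12 over all compared genes, of which 58.1% had a ratio above 0. Of all compared genes 6.78% passed on the higher side and 5.69% on the lower side, so 0 of 10 past the rule is not a result about these motors. Higher genes made up 54.4% of all that passed, and 36.5% to 40.6% with other scalings. At 1.5-fold, 2 of 10 were higher, beside 20.3% of all compared genes, and with TMM, the upper quartile and the median of gene ratios 1, 1 and 0 were. The 10 ratios lay close together and above the overall median. The counting interval lay above 1 for all 10 and below 1 for 0, beside 44.8% and 30.5% of all compared genes. These shares are not like for like, since an interval narrows with counts. The 10 had means of at least 27.9 CPM, and genes were compared from 1 CPM.

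KIF11 (Eg5; chromosome 10, 92593130 to 92655395, plus strand, GRCh38), the motor that pushes the spindle poles apart, had 2445 counts (112 CPM) in control cells and 2650 (162 CPM) in the knockout-labelled cells, a ratio of 1.45 (1.37 to 1.53). KIF15, which supports spindle bipolarity beside KIF11, had 9 and 8 counts and was not compared. Its symbol stands on 2 rows of the files, and reads that fit both copies can be lost in counting, which was not tested. KIF18A, which damps the swinging of chromosomes on the metaphase plate, had 29.02 and 41.9 CPM, a ratio of 1.44 (1.29 to 1.61). KIF18B, which shortens astral microtubules, had 36.7 and 49.1 CPM, a ratio of 1.34 (1.21 to 1.47). These 2 paralogues kept nearly the same proportion to each other, 0.790 counts of KIF18A per count of KIF18B in control cells and 0.853 in the other library.

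The motors on chromosomes had like ratios except for 1. KIF22 (Kid), which pushes chromosome arms toward the plate, had 114 and 161 CPM, a ratio of 1.40 (1.33 to 1.48). KIF4A, a chromokinesin that also shapes the central spindle, had 61.3 and 87.04 CPM, a ratio of 1.42 (1.32 to 1.53). KIF4B is an intronless near-copy of KIF4A and had 0 counts in both libraries, and reads that fit both could have been given to either gene. KIF2C (MCAK), which removes wrong attachments at centromeres, had the lowest ratio of the 10, with 2144 counts (97.98 CPM) and 1865 counts (114 CPM), 1.16 (1.09 to 1.24). Its log2 ratio of 0.21 became 0.09 with TMM scaling and 0.06 with the median of gene ratios, so its sign held by a small margin. Its counting interval included 1 with the upper quartile and with the median of gene ratios. KIF2B, another kinetochore depolymerase, had 0 counts in both.

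Among the 10 compared mitotic kinesins of the KIF pattern, KIF20A and KIF23 held the highest ratios. KIF20A (MKLP2; chromosome 5, 138179112 to 138187723, plus strand), which brings Aurora B to the central spindle, had 1136 counts (51.9 CPM) in control cells and 1420 (86.6 CPM) in the knockout-labelled cells, a ratio of 1.67 (1.54 to 1.80). KIF23 (MKLP1; chromosome 15, 69414349 to 69448427, plus strand), the motor of centralspindlin, had 1314 counts (60.05 CPM) and 1604 (97.8 CPM), a ratio of 1.63 (1.51 to 1.75). Both are kinesin-6 motors of the central spindle. The third kinesin-6 gene, KIF20B, which acts late in abscission, had 63.8 and 92.3 CPM, a ratio of 1.45 (1.35 to 1.56). KIF14, which works at the midbody with citron kinase, had 23.5 and 32.4 CPM, a ratio of 1.38 (1.22 to 1.56). Set against KIF2C within each library, which no scaling can change, KIF20A went from 0.530 to 0.761 counts per count of KIF2C, 1.44 times as much (1.30 to 1.59). These 2 motors had the highest and the lowest ratio of the 10 and were paired after the counts were seen. A factor above 1 therefore follows from the choice of the pair.

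**Figure D1:**
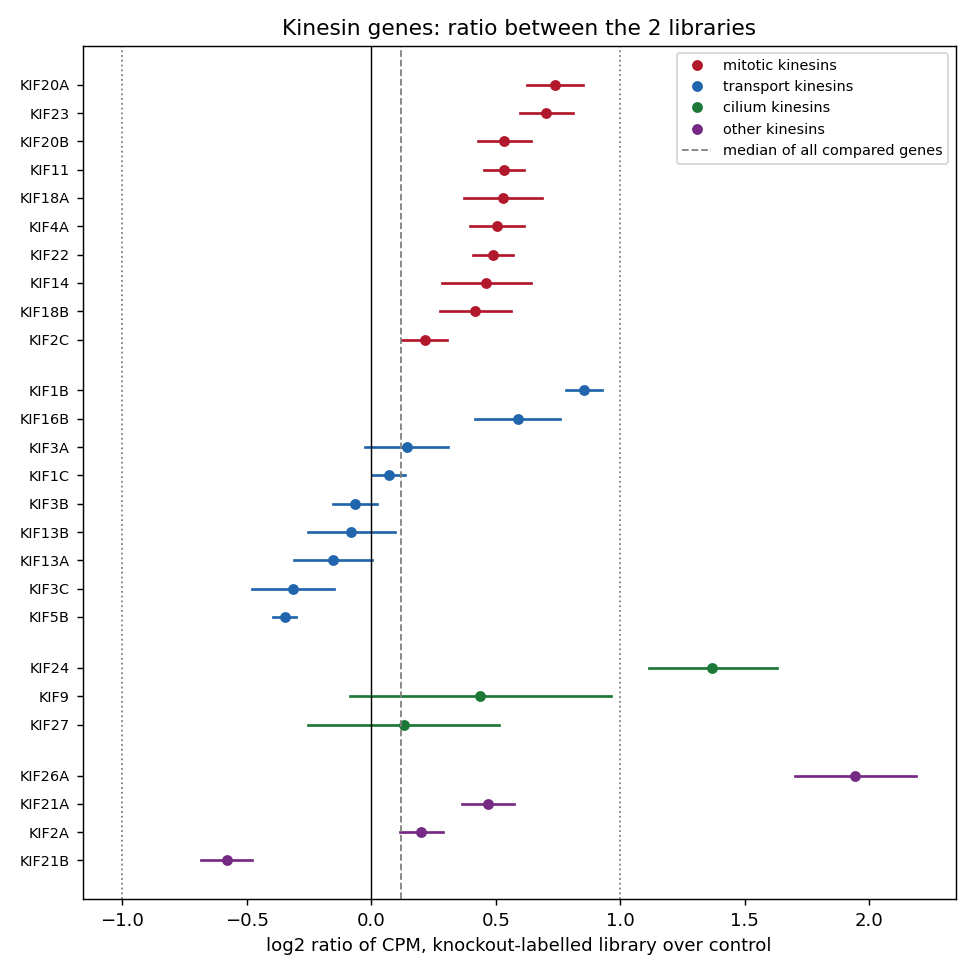
Log2 ratio of CPM, knockout-labelled library over control, for the 26 compared kinesin genes by class; bars are exact 95% counting intervals, the dashed line is the median of all compared genes and dotted lines mark 2-fold. The 10 mitotic kinesins all lie above 0, the 9 transport kinesins lie on both sides of it, and KIF24 and KIF26A lie past 2-fold.

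Promoters of mitotic genes commonly hold a cell cycle genes homology region (CHR), bound by MuvB complexes, and CCAAT boxes, bound by NF-Y. These 2 motifs were searched for in RefSeq promoter windows of GRCh38.p14, which run from 250 bases before to 50 bases after each gene start. The CHR was spelled TTTGAA or TTCGAA and the box CCAAT, each on both strands. Of the 39 kinesin genes 33 had a window. Both motifs stood in the windows of 8 of the 10 compared mitotic kinesins, of 1 of 8 compared transport kinesins with a window (KIF5B), and of KIF24 among the cilium and other kinesins. Over all 35116 windows 16.4% held a CHR match, 34.6% a CCAAT match and 6.38% both, and of the 9370 compared genes with a window 6.62% held both. The 2 exceptions among the mitotic kinesins were at the ends of their range of ratios. KIF2C, with the lowest ratio, held neither motif in its window, and KIF20A, with the highest, held 2 CCAAT matches and no CHR match. Other spellings of the CHR were not searched for, so both are exceptions only to the 2 spellings used. A match is a run of letters, not a shown binding site.

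The windows below run 5′ to 3′ on the gene's strand from 110 bases before the start (150 for KIF5B) to the first 10 transcribed bases, with CHR and CCAAT matches in capitals (TTCAAA and ATTGG are the same motifs on the other strand). They are shown because they carry the pattern shared by the mitotic motors (KIF11 to KIF22), 1 mitotic motor without a CHR match (KIF20A), the cilium gene past the rule (KIF24) and the transport motor whose CHR match lies far upstream (KIF5B).
KIF11, chr10:92593020-92593139, plus strand: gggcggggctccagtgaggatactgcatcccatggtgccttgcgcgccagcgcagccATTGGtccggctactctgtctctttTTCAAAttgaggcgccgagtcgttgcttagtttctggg
KIF4A, chrX:70289994-70290113, plus strand: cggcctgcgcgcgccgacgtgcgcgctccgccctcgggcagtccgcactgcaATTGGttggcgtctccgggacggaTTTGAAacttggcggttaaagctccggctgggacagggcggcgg
KIF23, chr15:69414239-69414358, plus strand: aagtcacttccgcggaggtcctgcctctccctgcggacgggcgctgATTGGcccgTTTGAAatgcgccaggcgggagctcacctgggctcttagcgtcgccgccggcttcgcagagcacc
KIF18A, chr11:28108147-28108266, minus strand: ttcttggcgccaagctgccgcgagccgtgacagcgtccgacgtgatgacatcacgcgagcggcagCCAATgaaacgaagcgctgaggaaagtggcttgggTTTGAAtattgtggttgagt
KIF22, chr16:29790641-29790760, plus strand: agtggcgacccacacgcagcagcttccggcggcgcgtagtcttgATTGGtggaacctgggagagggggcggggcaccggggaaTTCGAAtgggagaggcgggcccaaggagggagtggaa
KIF20A, chr5:138179002-138179121, plus strand: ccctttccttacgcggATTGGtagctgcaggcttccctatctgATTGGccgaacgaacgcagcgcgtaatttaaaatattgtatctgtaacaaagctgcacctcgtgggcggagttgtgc
KIF24, chr9:34329259-34329378, minus strand: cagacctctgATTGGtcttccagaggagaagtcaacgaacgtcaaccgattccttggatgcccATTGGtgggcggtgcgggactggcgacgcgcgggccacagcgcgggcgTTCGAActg
KIF5B, chr10:32056416-32056575, minus strand: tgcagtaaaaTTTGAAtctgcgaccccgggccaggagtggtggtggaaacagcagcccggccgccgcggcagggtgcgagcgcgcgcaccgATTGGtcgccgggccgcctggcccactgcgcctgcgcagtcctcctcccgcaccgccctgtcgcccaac

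In the mitotic windows shown with both motifs the CCAAT match lies upstream of the CHR match. In KIF11 they begin 53 and 28 bases before the start, in KIF4A 58 and 34, in KIF18A 45 and 10, and in KIF23 64 and 55. In KIF5B the order is the reverse, with the CHR match 140 and the CCAAT match 59 bases before the start. KIF22 has 2 RefSeq starts, and the window shown is that of the upstream one. The CHR match in the window of the other start, 244 bases before it, is the same site. The window of KIF24 belongs to a RefSeq start that lies inside the gene span given for KIF24 further on, not at its outer end.

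**Figure D2:**
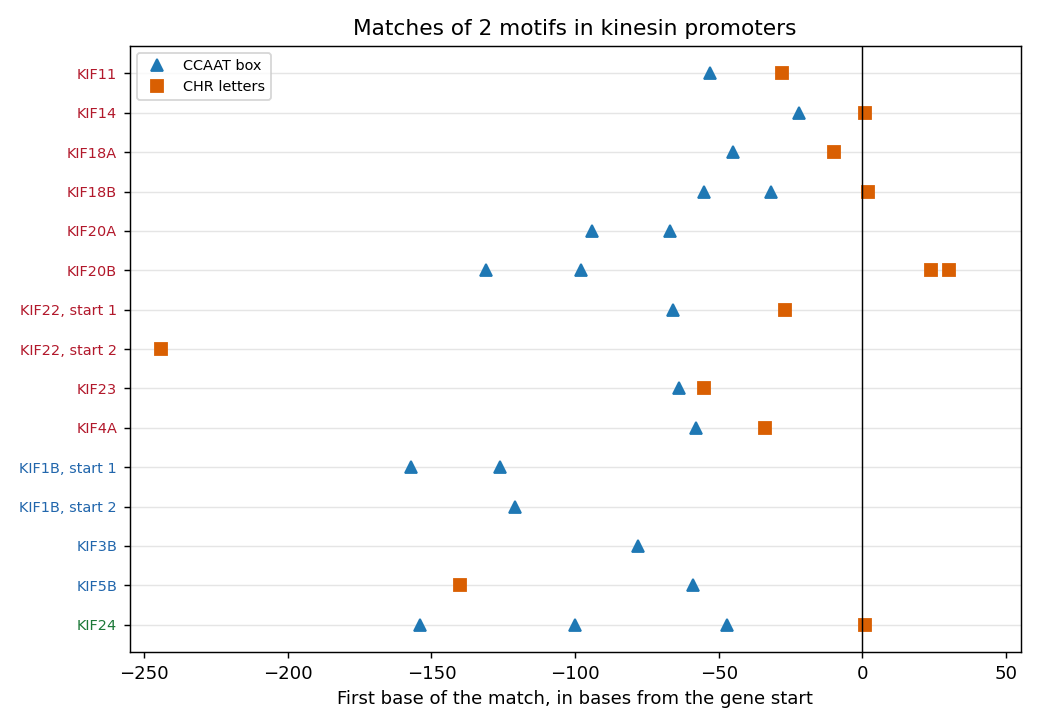
First base of each CHR match (squares) and CCAAT match (triangles), in bases from the gene start, in the promoter windows of compared kinesin genes that hold at least 1 match; names are red for mitotic, blue for transport and green for cilium genes. In the mitotic windows with both motifs the triangles lie to the left of the squares, and KIF5B has its square at -140. The second start of KIF22 has 1 square (-244), the same site as the square of its first start, and no triangle.

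Transport kinesins did not all go 1 way, and most lay under the overall median. Of the 9 compared, 0 were past the 2-fold rule, beside 6.78% and 5.69% of all compared genes. A log2 ratio above 0 was held by 4, beside 58.1% of all, and 5 were below 0. The median was -0.06, under the 0.12 of all compared genes, which 3 of the 9 exceeded. The counting interval lay above 1 for 3 and below 1 for 2, beside 44.8% and 30.5% of all compared genes, with the limit given for the mitotic motors. With TMM it lay above 1 for 2 and below 1 for 5, and with the other 2 scalings for 2 and 6. Of the 12644 compared genes 4693 and 4697 did so with TMM. With the median of gene ratios 2 were above 0 and 7 below, since KIF1C and KIF3A crossed it. The class held the largest and the smallest ratio among the 19 compared mitotic and transport motors together.

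KIF5B (chromosome 10, 32009015 to 32056425, minus strand), the kinesin-1 heavy chain of most tissues, had the most counts of any kinesin gene and the lowest ratio among transport motors. It had 10041 counts (459 CPM) in control cells and 5917 (361 CPM) in the knockout-labelled cells, 1.27-fold lower (1.23 to 1.31). Its share of all kinesin counts was 22.9% in control cells and 15.5% in the knockout-labelled cells. The neuronal kinesin-1 genes KIF5A and KIF5C had at most 2 counts in either library, so nearly all kinesin-1 heavy chain counts were those of KIF5B. The symbol of KIF5C stands on 2 rows, as that of KIF15 does, and a loss of its reads in counting was not tested.

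Kinesin-2, which drives intraflagellar transport, is built from KIF3A, a partner motor (KIF3B or KIF3C) and the adaptor KIFAP3. KIF3A had 648 and 536 counts (29.6 and 32.7 CPM), a ratio of 1.10 (0.982 to 1.24). KIF3B, its main partner, had 2558 and 1834 counts (117 and 112 CPM), a ratio of 0.956 (0.900 to 1.02). KIF3C, the alternative partner, had 805 and 486 counts (36.8 and 29.6 CPM) and was 1.24-fold lower (1.11 to 1.39). Both partners were lower relative to KIF3A within a library. Counts of KIF3C per count of KIF3A were 1.24 in control cells and 0.907 in the knockout-labelled cells, 0.730 times as many (0.622 to 0.857), and for KIF3B the same factor was 0.867 (0.762 to 0.986). KIFAP3 had 348 and 226 counts, 0.785 times as many per count of KIF3A (0.641 to 0.962). The homodimeric kinesin-2 gene KIF17 had 2 counts and 1.

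Kinesin-3 genes, which carry endosomes, vesicles and mitochondria, split by gene. KIF1B (chromosome 1, 10210570 to 10381603, plus strand), known for mitochondria and synaptic vesicle precursors, had 2594 counts (119 CPM) in control cells and 3517 (214 CPM) in the knockout-labelled cells, a ratio of 1.81 (1.72 to 1.90) that 89.6% of all compared genes lay below on the log2 scale. Its paralogue KIF1C, which carries integrin-containing endosomes and mRNA, had 4217 and 3320 counts (193 and 202 CPM), a ratio of 1.05 (1.003 to 1.10). The balance of the 2 genes moved from 0.615 counts of KIF1B per count of KIF1C to 1.06, 1.72 times as much (1.61 to 1.84). KIF1A, the neuronal member, had 0 counts in both. KIF16B, which moves early endosomes, had 24.2 and 36.3 CPM, a ratio of 1.503 (1.33 to 1.69). KIF13A and KIF13B, paralogues that carry recycling endosomes and other membrane cargo, had 38.2 against 34.4 CPM and 29.9 against 28.3 CPM. Their intervals, 0.807 to 1.002 and 0.838 to 1.07, include 1 when scaled by library totals. With TMM scaling their log2 ratios were -0.27 and -0.19, and both intervals lay below 1. Their proportion to each other (1.28 and 1.22) differed by less than counting error.

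Set side by side, mitotic motors made up a larger part of the kinesin RNA in the knockout-labelled cells. Summed over the 13 genes of each class, mitotic kinesins had 651 CPM in control cells and 923 CPM there, a ratio of 1.42 (1.39 to 1.45). Transport kinesins had 1046 and 1051 CPM, a ratio of 1.004 (0.985 to 1.02). Per count of transport kinesins there were 0.622 counts of mitotic kinesins in control cells and 0.879 in the knockout-labelled cells, 1.41 times as many (1.37 to 1.46), a figure that no scaling changes. Without KIF5B the factor was 1.21 (1.17 to 1.25). The medians of the 2 classes differed by 0.57 (log2), and by 0.53 to 0.61 under the alternatives run. The ranges of the 2 classes overlapped, with log2 ratios of 0.21 to 0.73 for mitotic and -0.35 to 0.85 for transport motors. KIF1B and KIF16B, both transport motors, had ratios above the mitotic median. For 1 mitotic and 1 transport motor, KIF11 went from 0.244 to 0.448 counts per count of KIF5B.

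**Figure D3:**
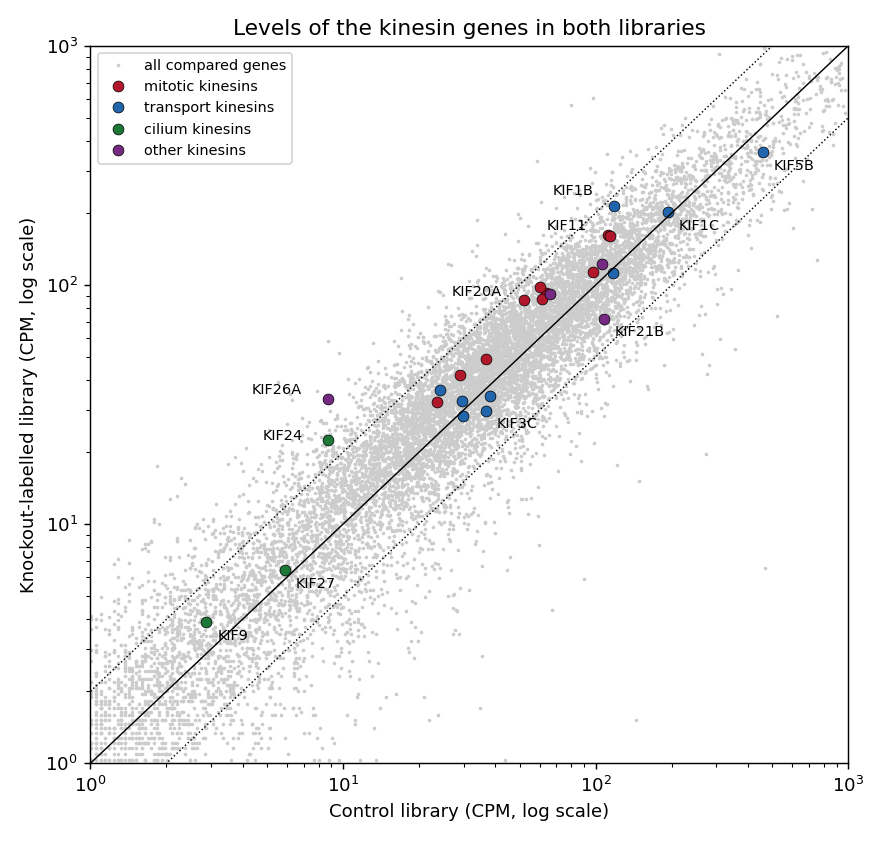
Level of each compared kinesin gene in control cells (x axis) and in the knockout-labelled cells (y axis), both in CPM on log scales, over all compared genes in grey; the solid line marks equal levels and dotted lines 2-fold. Mitotic kinesins lie just above the solid line, KIF5B below it, and KIF24 and KIF26A above the upper dotted line.

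In bulk RNA, a different share of cells in mitosis and a different RNA level per cell cannot be told apart. Values of proliferation genes stand beside these ratios. Of 16 cell cycle factors and markers, 1 was at least 2-fold higher (E2F7, a repressor of E2F targets, 14.5 and 38.2 CPM), 0 were lower by that much, beside 6.78% and 5.69% of all compared genes, and the median log2 ratio was 0.59 (range -0.68 to 1.33). FOXM1 and MYBL2, transcription factors of mitotic genes, had 171 against 301 CPM and 95.3 against 169.8 CPM. The proliferation marker MKI67 had 155 and 299.8 CPM. The list did not go 1 way: CDK1, the mitotic kinase, had 4376 and 2042 counts, and TOP2A, the mitotic topoisomerase, 12694 and 7707 counts. The part of these differences in the kinesin ratios was not tested.

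Partners that mitotic kinesins work with had a lower median ratio than the motors, and the difference was not tested. Of 18 partners and regulators 0 passed the rule in either direction, beside 6.78% (higher) and 5.69% (lower) of all compared genes. Of the 18, 16 had a log2 ratio above 0, beside 58.1% of all, and 14 did with each other scaling. The median was 0.28, beside 0.12 over all compared genes. TPX2, which loads KIF11 and KIF15 on spindle microtubules, had 216 and 299 CPM, and counts of KIF11 per count of TPX2 were alike in both libraries (0.517 and 0.541). KIF23 and RACGAP1, the pair that forms centralspindlin, were not in the same proportion: 0.487 counts of KIF23 per count of RACGAP1 in control cells and 0.672 in the knockout-labelled cells, 1.38 times as much (1.26 to 1.51). KIF4A per count of PRC1, the bundling protein it binds, went from 0.388 to 0.473, 1.22 times as much (1.12 to 1.33). For KIF14 and citron kinase (CIT) the factor was 1.15 (0.989 to 1.34). BUB1, a spindle checkpoint kinase, and NUSAP1, a spindle microtubule protein, were the 2 members of the list below 0 when scaled by library totals.

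Cargo adaptors covered a wider range of ratios than the transport motors. Of 17 compared kinesin light chains and adaptors, 1 was past the rule on each side (6.78% and 5.69% of all compared genes were), 6 had a log2 ratio above 0 (58.1% of all did), and the median was -0.15, beside 0.12 over all. The lists that follow are read against the same shares. KLC3, a kinesin light chain, had 123 and 29 counts, 3.18-fold lower (2.11 to 4.95). TRAK2, which links kinesin-1 to mitochondria, had 525 and 893 counts, a ratio of 2.27 (2.03 to 2.53), and fell just under the rule with the median of gene ratios (0.995, log2). Its paralogue TRAK1 had 101 and 66.3 CPM. Of 22 compared dynein and dynactin genes, the motor of the opposite direction, 0 passed the rule, 9 were above 0 and the median was -0.05. Of 10 compared tubulin genes 1 passed, TUBA1B (597 and 1271 CPM), which did not with any other scaling (0.93 to 0.97, log2), and the median was 0.28. The list held 11 tubulin genes, and TUBB (5 and 4 counts) was not compared. Whether its reads were lost in counting was not tested.

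**Figure D4:**
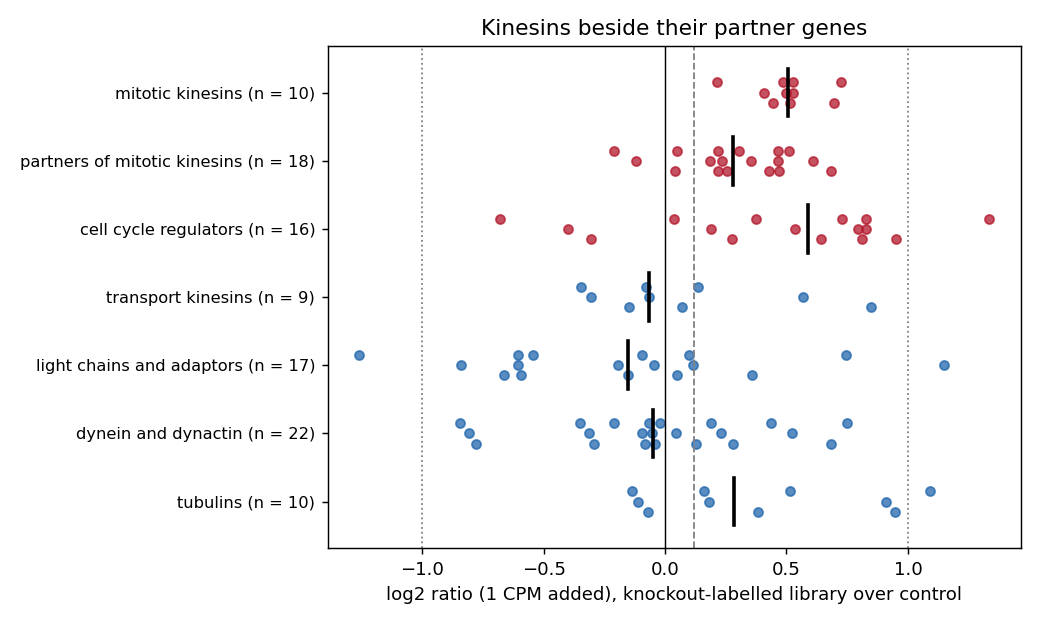
Log2 ratio (1 CPM added) of each compared gene in mitotic kinesins and 2 cell cycle lists (red) and in transport kinesins, their adaptors, dynein and dynactin, and tubulins (blue); black bars are medians, the dashed line is the median of all compared genes and dotted lines mark 2-fold. Mitotic kinesins span 0.21 to 0.73, and light chains and adaptors -1.26 to 1.15.

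KIF24 and KIF26A were the 2 kinesin genes past the 2-fold rule, both higher in the knockout-labelled cells. That is 2 of 26, beside 12.5% of all compared genes in either direction, so this count is no result about kinesin genes as a group. KIF24 (chromosome 9, 34252380 to 34333671, minus strand), a depolymerase of centriolar microtubules that restrains the growth of cilia, had 191 counts (8.73 CPM) in control cells and 370 (22.6 CPM) in the knockout-labelled cells, a ratio of 2.58 (2.16 to 3.09). Its promoter window is the 1 outside the mitotic class, apart from that of KIF5B, with both motifs, as printed above. UBAP1 overlaps KIF24 by 143 bases on the opposite strand and had 74.4 and 79.4 CPM. KIF26A (chromosome 14, 104138587 to 104180894, plus strand), an atypical kinesin without motor ATPase activity, had 190 counts (8.68 CPM) and 547 (33.3 CPM), a ratio of 3.84 (3.25 to 4.55), and its log2 ratio of 1.83 was above that of 99.5% of compared genes. Both were low genes in control cells, and both stayed past the rule under every other scaling.

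Other cilium kinesins were at low counts. KIF27, a paralogue of KIF7, had 129 and 106 counts, a ratio of 1.10 (0.839 to 1.43). KIF9, a kinesin of motile cilia, had 63 and 64 counts, a ratio of 1.35 (0.942 to 1.95). On the opposite strand KIF9-AS1 overlaps KIF9 by 18576 bases and had 80 and 33 counts, and KLHL18 overlaps it by 535 bases and had 558 and 783 counts. Whether counting used strand is not given in these sources, so the value of KIF9 is uncertain. KIF7, a Hedgehog regulator of the cilium tip, had 0 counts and 1, and KIF6 and KIF19, kinesins of motile cilia, had 0 in both.

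The microtubule regulators KIF21A and KIF21B, kinesin-4 paralogues, had opposite directions. KIF21A, which limits microtubule growth at the cell cortex, had 1447 counts (66.1 CPM) in control cells and 1501 (91.5 CPM) in the knockout-labelled cells, a ratio of 1.38 (1.29 to 1.49). KIF21B (chromosome 1, 200969390 to 201023714, minus strand), best known from neurons and lymphocytes, had 2353 counts (108 CPM) and 1180 (71.9 CPM), 1.495-fold lower (1.39 to 1.61), the lowest ratio of the 26. Within a library KIF21A went from 0.615 to 1.27 counts per count of KIF21B, 2.07 times as much (1.87 to 2.29). KIF2A, a depolymerase of spindle poles and of interphase cells, had 106 and 122 CPM, a ratio of 1.15 (1.08 to 1.22). In the gene spans of GENCODE release 29, IPO11 overlaps it by 133278 bases on the same strand and had 1137 and 1381 counts. DIMT1 overlaps it by 16686 bases on the opposite strand and had 1052 and 861 counts. How shared reads were counted is not given, so the value of KIF2A is uncertain. The proportion of KIF2A to the mitotic paralogue KIF2C was the same in both libraries within counting error, with 0.920 and 0.928 counts of KIF2C per count of KIF2A. KIF12 (0 counts and 1), KIF25 (8 and 9) and KIF26B (5 and 3) were not compared. The symbol of KIF26B also stands on 2 rows, and a loss of its reads in counting was not tested.

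In all, 13 kinesin genes were not compared, and 5 of them had 0 counts in both libraries (KIF1A, KIF2B, KIF4B, KIF6 and KIF19). A count of 0 allows up to 3 counts, or 0.137 CPM (control) and 0.183 CPM (knockout-labelled). Of 4 kinesins named outside the symbol pattern, KIFC3, a kinesin-14 of epithelial junctions and organelles, had 1833 counts (83.8 CPM) in control cells and 348 (21.2 CPM) in the knockout-labelled cells, 3.95-fold lower (3.52 to 4.44). CENPE, the kinetochore kinesin, had 313 and 493 counts (14.3 and 30.05 CPM), a ratio of 2.10 (1.82 to 2.43), and missed the 2-fold rule once another scaling was used (0.87 to 0.90, log2). KIFC2 had 28.6 and 32.7 CPM. KIFC1, a mitotic minus-end motor whose symbol also stands on several rows, had 53 and 46 counts.

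Between genes, levels were compared as CPM per kilobase of the longest coding transcript in GENCODE release 29, which may not be the model the authors counted on. On that scale KIF5B was highest in control cells (78.1 CPM per kilobase), followed by KIF22 (45.7), KIF2C (33.2) and KIF2A (31.7). In the knockout-labelled library KIF22 (64.1) and KIF5B (61.4) led, then KIF2C (38.5) and KIF2A (36.4). The central spindle motors moved up in the order, KIF20A from 16.2 to 27.04 and KIF23 from 16.1 to 26.3 CPM per kilobase, past KIF1C (24.3 and 25.6) and KIF3B (19.2 and 18.3). KIF9 was the lowest of the compared genes in both, at 0.858 and 1.16 CPM per kilobase.

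Chromosome 10, which carries KIF11, KIF20B and KIF5B, had a median log2 ratio of -0.18 over its 451 compared genes. Among compared genes within 5 Mb of KIF11, KIF20B and KIF5B the medians were -0.25 (57 genes), -0.17 (43 genes) and -0.27 (25 genes). KIF11 and KIF20B, both at 0.53, therefore lay 0.70 above their chromosome's median, and KIF5B, at -0.35, lay 0.17 below it. For the other compared mitotic kinesins the log2 ratio stood 0.11 (KIF2C) to 0.64 (KIF23) above the median of their own chromosome.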

How the data were processed

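The authors deposited 1 table of raw counts per gene row for each of the 2 libraries, not normalized. TopHat and the build GRCh38 are named in the submitters' processing notes. The counting program, annotation and use of strand are not given in these sources, although the kit keeps strand, per the labels' protocols. Rows of 1 symbol were summed (58173 rows, 52402 symbols; 3 kinesin symbols stand on more than 1 row). Counts were divided by the library total. Ratios have exact conditional (Clopper-Pearson) 95% intervals, and ratios of ratios between genes (17 pairs of genes and 2 class ratios) have normal intervals on the log scale. PCR duplicates would make both too narrow. Every kinesin symbol is named, and listed genes past the rule or described with their motor. Alternatives were TMM, upper quartile and median-of-ratios scaling (edgeR 4.0.16, R 4.3.3), pseudocounts of 0.1 and 5 CPM, no filter or a minimum of 5 CPM, rules of 1.5-fold and 3-fold, KIF2A as mitotic, and centring by chromosome. Positions and promoters are from RefSeq (GRCh38.p14). The procedure was tested on simulated data. The members and lists were chosen with earlier results of these data known, and the gene pairs and motifs after the counts were seen.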

Additional observations from a re-analysis of the deposited data

How the results depend on the processing

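The 3 other scalings shift every ratio by a constant, which moved the class medians and not the gap between them. The mitotic median log2 ratio of 0.51 became 0.39 with TMM, 0.37 with the upper quartile and 0.35 with the median of gene ratios, and the transport median of -0.06 became -0.18, -0.20 and -0.22. Beside these, the median of all compared genes was 0.004 to -0.03. All 10 mitotic kinesins kept a log2 ratio above 0 with each scaling. The counting interval lay above 1 for 10 with TMM and for 9, all but KIF2C, with the other 2. Counts of mitotic and transport kinesins past the rule were 0 on both sides except with the 1.5-fold rule, which put 2 mitotic kinesins and 1 transport kinesin on the higher side by its own construction. With the 3-fold rule KIF24 no longer passed. No paired analysis was possible because each group has 1 library, and for the same reason no library could be left out. KIF7, KIF12, KIF15, KIF17, KIF25 and the other kinesin genes that were not compared had fewer than 10 counts in each library, and no difference was detectable at those counts.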

Other observations

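Compared genes with both the CHR and the CCAAT letters in their promoter window (620 genes) had a median log2 ratio of 0.18, and those without both (8750 genes) 0.11. For the 1454 genes with a CHR match and the 4053 with a CCAAT match the median was 0.14 each. All 10 compared mitotic kinesins lay above 0.18, with both motifs or, as for KIF2C and KIF20A, without both. The comparison therefore does not separate these motors by the motif spellings searched for.

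Some mitotic kinesin genes share bases with a well counted gene on the opposite strand. KIF20A overlaps CDC23 by 68 bases (74.1 and 82.04 CPM in the control and the knockout-labelled cells) and BRD8 by 268 (46.4 and 55.1 CPM). KIF18A overlaps METTL15 by 61 bases (25.1 and 21.9 CPM), and KIF4A overlaps PDZD11 by 425 (32.2 and 29.5 CPM). Each of these 4 neighbours had a lower ratio than the kinesin beside it. MAZ, which lies near KIF22 on the same strand without overlapping it, had 267 and 422 CPM. Its log2 ratio of 0.66 was higher than the 0.48 of KIF22. Whether reads of neighbours entered the kinesin counts was not tested.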
